A study of Mus musculus with 4 samples.

Results

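The miRNAs described here are the 5 deposited rows for the arms of miR-192, miR-194 and miR-802, listed as mmu-miR-192-5p, mmu-miR-192-3p, mmu-miR-194-5p, mmu-miR-802-5p and mmu-miR-802-3p. They were chosen by name out of 1809 miRNAs listed for every library, with earlier results of these data known. All 5 passed the filter on low counts that left 1797 miRNAs to test. They were measured in exosome preparations from the plasma of mice with tumours. Mice lacking gp49B, an inhibitory receptor of myeloid cells (genotype gp49B-/-, called KO), were set against wild type mice (WT). All mice were C57BL/6, received LLC cells, the Lewis lung carcinoma line of mouse, by vein and were bled on day 21. Each genotype has 2 libraries, numbered pool 1 and pool 2, and each KO library was made from 4 pooled plasma samples and each WT library from 3. The number of samples pooled therefore follows genotype, and its part cannot be told apart from that of the deletion. As miRNA libraries do not show the gp49B mRNA, the genotypes are as labelled and were not checked. No sample without tumour cells was analysed here, and because the tumour line and the host are both mouse, RNA of the host and of the tumour cannot be told apart.

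A mature miRNA is cut from one arm of a short hairpin RNA, named 5p or 3p, and pairs with messenger RNAs mainly through its seed, bases 2 to 8 from its 5′ end. The miR-192 and miR-194 hairpins lie side by side and are transcribed together in hepatocytes and in the lining of the gut, and miR-192 is also abundant in kidney. Mice carry a related pair elsewhere, miR-194-1 with miR-215, and miR-215 has the same seed as miR-192. miR-802 is made mainly in liver and rises there in obese mice, where it impairs glucose metabolism. Together with miR-122, the main miRNA of hepatocytes, miR-192 is known as a blood marker of liver injury.

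The mature sequences of the 5 arms and of miR-215-5p are shown because their seeds and their few differing bases decide which counts can be told apart; they are from RefSeq (GRCm38.p6), all on the plus strand, with the seed in capitals.
miR-192-5p, chr19:6264857-6264877: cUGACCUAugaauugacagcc
miR-192-3p, chr19:6264900-6264921: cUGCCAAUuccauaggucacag
miR-194-5p, chr1:185313325-185313346 and chr19:6264658-6264679: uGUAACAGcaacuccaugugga
miR-802-5p, chr16:93369737-93369758: uCAGUAACaaagauucauccuu
miR-802-3p, chr16:93369775-93369796: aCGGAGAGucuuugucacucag
miR-215-5p, chr1:185313610-185313630: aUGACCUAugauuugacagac

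The 5 members have 5 different seeds. miR-192-5p shares its seed with 1 other mature miRNA of the RefSeq table, miR-215-5p, and 18 of their 21 bases are identical. Counted from 1 at the 5′ end, with the base of miR-192-5p first, they differ by C1A, A12U and C20A, and A12U is the only one of these away from the ends. The sources used here do not say how reads that fit both were assigned, so their division is uncertain. miR-194-5p is the same sequence from 2 loci, and its count cannot be divided between chromosomes 1 and 19. On chromosome 19 the hairpin Mir194-2 ends 115 bases before Mir192, and on chromosome 1 Mir194-1 ends 195 bases before Mir215. In GENCODE M21, Mir192, Mir194-2 and Mir802 are covered by no gene but their own. Mir194-1 and Mir215 lie opposite an intron of the protein-coding gene Iars2 and on the strand of the antisense RNA 2010103J01Rik, Mir194-1 in its intron and Mir215 in its exon.

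Values are UMI counts: a UMI (unique molecular identifier) is a random tag joined to a molecule before amplification. Pools 1 and 2 held 1729201 and 3645842 UMIs in KO, against 1607218 and 3179081 in WT. The pool numbers also differed in reads per UMI, 5.70 and 2.11 in KO pools 1 and 2 and 5.29 and 1.69 in WT pools 1 and 2, and in the median level of a listed miRNA in CPM, the count scaled to a common library total, 25.2 and 11.6 in KO and 29.8 and 9.78 in WT. Levels were scaled with TMM factors, which bring the bulk of miRNAs to the same level in each library, and are given as scaled CPM; ratios are also given on total UMIs. Beside each count of members, the share of all miRNAs that meet the same condition is given as background.

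miR-192-5p was the most abundant member, with 5382 and 17680 UMIs in KO pools 1 and 2, against 10151 and 17064 in WT pools 1 and 2. It ranked 46th and 25th among miRNAs in the KO libraries and 23rd and 18th in the WT libraries. As a share of miRNA UMIs it took 0.315% and 0.487% in KO, against 0.643% and 0.538% in WT. Both KO shares were thus below both WT shares, which 2.11% of the 1797 miRNAs tested also met, and the difference in mean share, KO minus WT, was -0.190 percentage points (exact two-sided permutation test, p = 0.33, the smallest that 2 against 2 libraries allow). After TMM scaling the levels were 2095 and 7122 CPM in KO, against 3794 and 9380 CPM in WT, so the groups overlapped. The means were 4609 ± 3555 CPM in KO and 6587 ± 3950 CPM in WT (SD, n = 2 each), and the log2 fold change was -0.52 (SE 0.88, edgeR quasi-likelihood test, adjusted p = 0.99995). The difference was thus smaller than the spread between the libraries of a genotype, which are of different pool numbers. With pool number as a block the log2 fold change was -0.63 (SE 0.28, adjusted p = 0.898, edgeR). Unblocked, the log2 fold change was 0.13 without KO pool 1 and 0.28 without WT pool 2. Each of these fits compares unequal pool numbers. After TMM scaling this arm was 3.40 times as high in pool 2 as in pool 1 in KO and 2.47 times in WT. Fits with 1 library left out therefore do not separate genotype from pool number. Within a pool number the KO over WT ratio of scaled UMIs was 0.552 in pool 1 (95% exact interval 0.534 to 0.571, counting error only) and 0.759 in pool 2 (0.743 to 0.775). On total UMIs these ratios were 0.489 and 0.905.

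The other arm of the hairpin, miR-192-3p, had 42 and 90 UMIs in KO, against 98 and 82 in WT. KO pool 1 stood below the other libraries and the remaining counts lay close together. Its shares were 0.00246% and 0.00248% in KO, against 0.00621% and 0.00259% in WT. Both were again lower in KO, which 2.11% of the miRNAs tested met, but the pool 2 shares were nearly equal. Its levels were 16.4 and 36.3 CPM in KO, against 36.6 and 45.1 CPM in WT. These do not overlap, a pattern of 11.6% of all miRNAs tested, though KO pool 2 and WT pool 1 were nearly equal. The log2 fold change was -0.63 (SE 0.50, adjusted p = 0.99995, edgeR). With pool number as a block it was -0.71 (SE 0.27), with an unadjusted p of 0.0450 and an adjusted p of 0.898 in edgeR. miR-192-3p was the only member with an unadjusted p under 0.05 in that blocked fit, in which 78 of 1797 miRNAs had one. The pool 1 ratio was 0.446 and the pool 2 ratio 0.804, and the pool 2 interval, 0.590 to 1.10, spans 1. On total UMIs these ratios were 0.396 and 0.958, and the pool 2 interval, 0.703 to 1.31, again spans 1. The Mir192 hairpin is shown with both arms in capitals, because the arms are counted as separate members (chr19:6264844-6264932).
Mir192: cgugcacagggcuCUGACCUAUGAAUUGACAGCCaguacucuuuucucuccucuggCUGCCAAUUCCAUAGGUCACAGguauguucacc
The 5p arm had 128 and 196 times the UMIs of the 3p arm in KO, against 104 and 208 times in WT, so the arm ratio was higher in pool 2 in both genotypes. Its KO over WT fold was 1.24 in pool 1 (95% log-normal interval 0.861 to 1.78, counting error only) and 0.944 in pool 2 (0.699 to 1.27), and both intervals span 1.

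**Figure D1:**
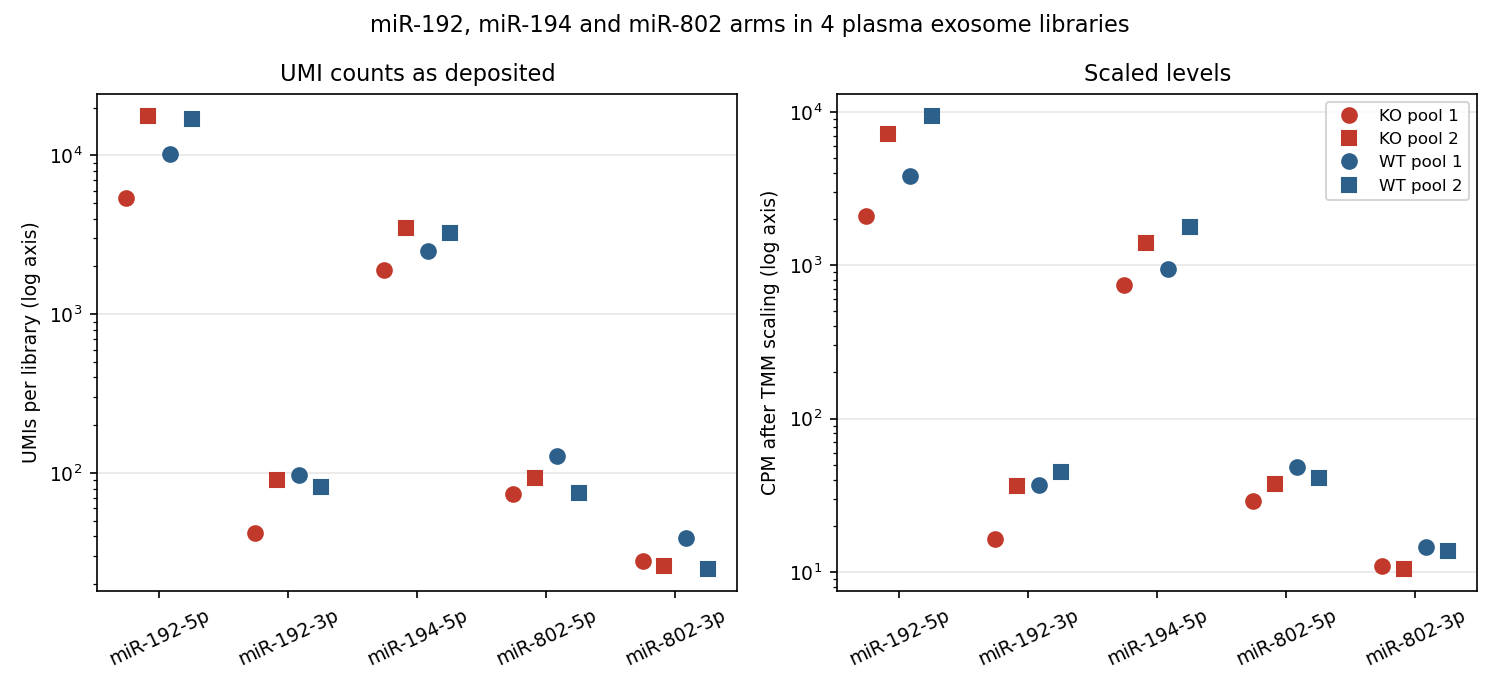
UMI counts as deposited (left) and TMM-scaled CPM (right), both on log axes, of the 5 members in each library, with KO in red, WT in blue, pool 1 as circles and pool 2 as squares. miR-192-5p and miR-194-5p stand far above the other arms, and the distance between pool numbers exceeds that between genotypes for miR-192-5p.

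miR-194-5p, which comes from both loci, had 1896 and 3468 UMIs in KO, against 2511 and 3247 in WT. It ranked 65th and 56th among miRNAs in KO and 52nd in each WT library. Its shares were 0.111% and 0.0955% in KO, against 0.159% and 0.102% in WT, and overlapped. At 738 and 1397 CPM in KO and 938 and 1785 CPM in WT, the scaled groups overlapped too (1068 ± 466 CPM in KO and 1362 ± 599 CPM in WT over 2 libraries each, SD). The log2 fold change was -0.35 (SE 0.69, adjusted p = 0.99995, edgeR). It was 0.06 without KO pool 1 and 0.19 without WT pool 2, fits in which pool numbers are unequal between the genotypes. Within pool numbers its ratio hardly varied under TMM, at 0.787 in pool 1 (0.741 to 0.835) and 0.783 in pool 2 (0.746 to 0.821), and on total UMIs it was 0.697 and 0.933.

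The 3p arms of Mir194-1 and Mir194-2 differ in sequence, so unlike the 5p arm they mark their loci. They are shown for that reason, with the seed in capitals, at chr1:185313360-185313381 for miR-194-1-3p and chr19:6264694-6264715 for miR-194-2-3p.
miR-194-1-3p: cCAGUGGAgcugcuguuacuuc
miR-194-2-3p: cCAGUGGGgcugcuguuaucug
With the base of miR-194-1-3p first, they differ by A8G, C19U, U20C and C22G, and A8G is in the seed. miR-194-1-3p had 48 and 30 UMIs in KO, against 68 and 7 in WT, and miR-194-2-3p had 18 and 29 in KO, against 23 and 20 in WT. The arm from chromosome 1 thus had 2.67 and 1.03 times the UMIs of that from chromosome 19 in KO, against 2.96 and 0.35 times in WT, and the order was turned in WT pool 2, where the chromosome 1 arm had 7 UMIs. Their log2 fold changes were 0.02 (SE 0.65) for miR-194-1-3p and -0.06 (SE 0.46) for miR-194-2-3p.

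miR-802-5p had 74 and 93 UMIs in KO, against 129 and 75 in WT. WT pool 1 was the highest library and the other counts lay close together. The levels were 28.8 and 37.5 CPM in KO, against 48.2 and 41.2 CPM in WT. They did not overlap (33.1 ± 6.12 CPM in KO and 44.7 ± 4.94 CPM in WT over 2 libraries each, SD). Both KO levels were below both WT levels for 11.6% of all miRNAs tested. Its shares, 0.00433% and 0.00256% in KO, against 0.00818% and 0.00237% in WT, overlapped. The log2 fold change was -0.43 (SE 0.45, adjusted p = 0.99995, edgeR). Pool ratios were 0.598 in pool 1 (0.443 to 0.801) and 0.909 in pool 2 (0.663 to 1.25). On total UMIs the pool 2 ratio was 1.08, so the direction in pool 2 turned with the scaling. miR-802-3p, the other arm, had 28 and 26 UMIs in KO, against 39 and 25 in WT, which is 10.9 and 10.5 CPM in KO, against 14.6 and 13.7 CPM in WT. The shares of miR-802-3p, 0.00164% and 0.000716% in KO, against 0.00247% and 0.000789% in WT, overlapped too. Its pool ratios were 0.748 (0.443 to 1.25) and 0.762 (0.423 to 1.38), and at this depth neither was separable from 1. The 5p arm of miR-802 had 2.64 and 3.58 times the UMIs of the 3p arm in KO, against 3.31 and 3.00 times in WT, a far narrower margin than in miR-192.

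Together the 5 members took 0.434% and 0.588% of miRNA UMIs in KO, against 0.819% and 0.646% in WT. Both KO libraries were below both WT libraries, with a difference of -0.222 percentage points (exact two-sided permutation test, p = 0.33). miR-192-5p made up 72.5% and 82.8% of the members' UMIs in KO and 78.5% and 83.3% in WT, so the sum mostly follows that arm. Without WT pool 1 the share of miR-194-5p was 0.000793 percentage points higher in KO, that of miR-802-5p 0.00108 higher and that of miR-802-3p 0.000388 higher.

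None of the 5 members was called by edgeR's quasi-likelihood test at an adjusted p under 0.05, and 0 of 1797 miRNAs were (0.0%). At an unadjusted p under 0.05 there were 32 miRNAs (1.78%), 15 higher and 17 lower in KO, with 0 members among them; limma-voom had 27 and DESeq2 28, also with 0 members, and each called 0 after adjustment. All 5 members had a negative log2 fold change, as did 52.6% of the miRNAs tested. Their median was -0.43, beside -0.03 over all 1797. Without KO pool 2 the median was -0.88, and without KO pool 1 it was -0.15. The non-overlapping CPM of miR-192-3p, miR-802-5p and miR-802-3p, with both KO libraries below both WT libraries, was a pattern that 11.6% of all miRNAs tested shared. As shares of miRNA UMIs, both arms of miR-802 overlapped between the genotypes.

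**Figure D2:**
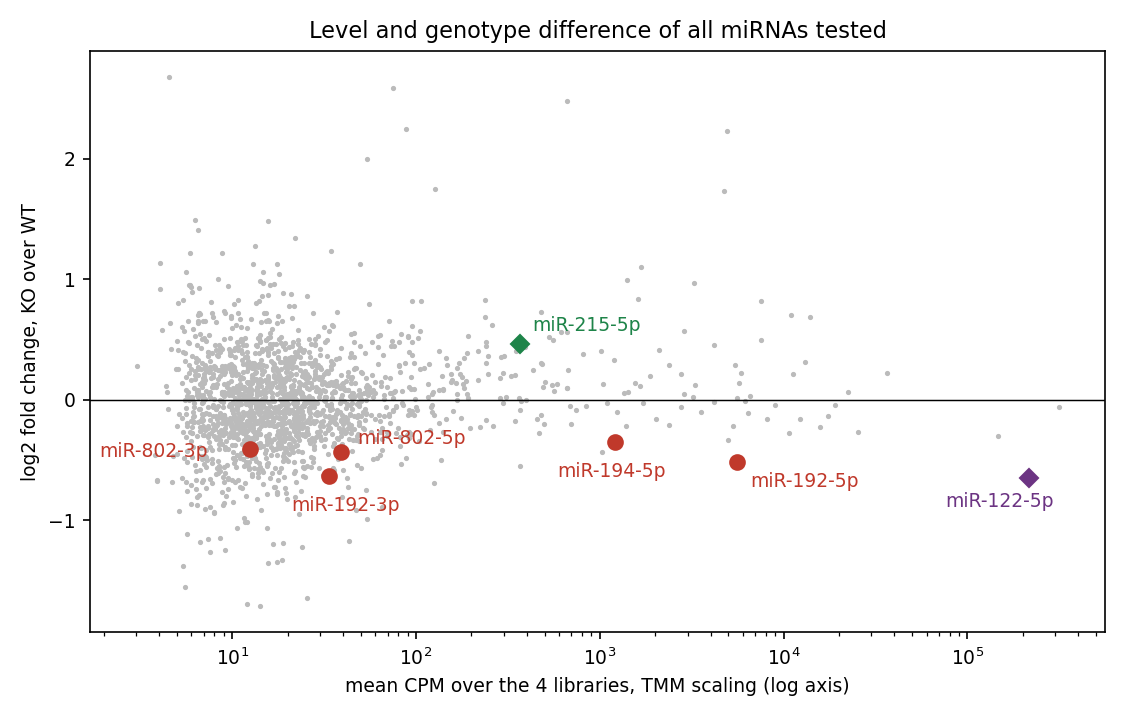
Log2 fold change, KO over WT, against mean CPM over the 4 libraries (log axis) for every miRNA tested, with the 5 members in red, miR-215-5p in green and miR-122-5p in purple. All 5 members lie below 0, between -0.63 and -0.35, and many other miRNAs of low abundance lie as far from 0.

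In both pool numbers all 5 members were lower in KO with TMM scaling, which 27.1% of the 1780 miRNAs with counts above 0 in every library also were, and 22.2% of the 352 that averaged at least 100 UMIs. With scaling on total UMIs 4 of 5 were lower in both pools, beside 20.8% of all. The median KO over WT ratio of all miRNAs was 0.880 in pool 1 and 1.18 in pool 2 on total UMIs, and 0.994 and 0.989 under TMM. All 5 members were below the median of their pool in both pools, as were 26.0% of the 1780 miRNAs, and within a pool number the scaling does not enter this count. The counting intervals are narrow for abundant miRNAs; they cover the counting of UMIs and no variation between plasma pools.

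**Figure D3:**
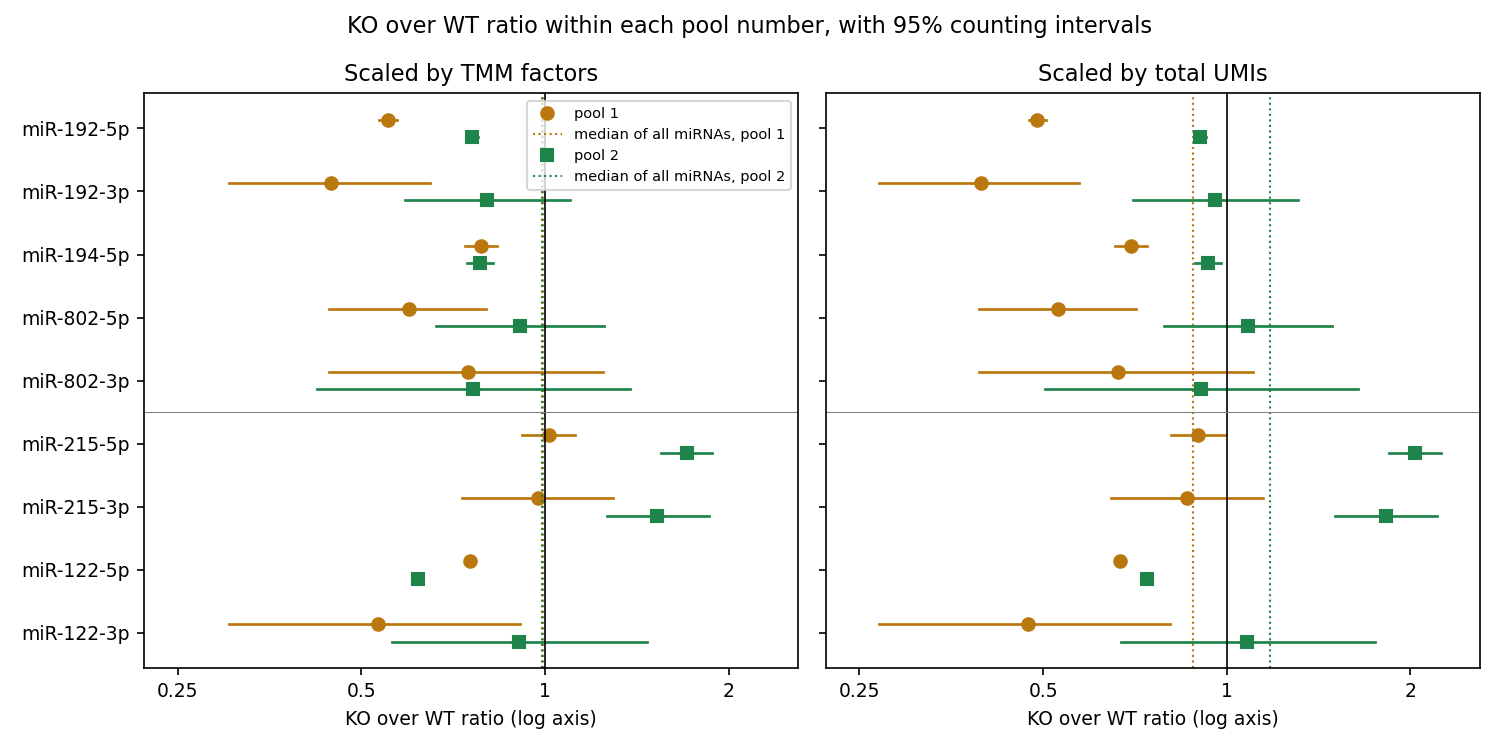
KO over WT ratio within pool 1 (orange circles) and pool 2 (green squares) on a log axis, scaled by TMM (left) or total UMIs (right), with 95% counting intervals as bars and the median of all miRNAs as dotted lines. The 5 members, above the grey line, each lie left of the median of their own pool, and miR-215-5p in pool 2 lies right of them at 1.71 under TMM.

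The order of the levels was the same at the top and bottom in every library: miR-192-5p, then miR-194-5p, and last miR-802-3p. In between, miR-802-5p was above miR-192-3p in 3 libraries and below it in WT pool 2, so these neighbours were not separated. The arms are 21 or 22 bases long, so length hardly enters these orders. The members differed unequally between pool numbers. On TMM-scaled levels miR-192-5p was 3.40 times as high in pool 2 as in pool 1 in KO and 2.47 times in WT, miR-194-5p was 1.89 times in KO and 1.90 times in WT, and miR-802-3p 0.961 times in KO and 0.943 times in WT. On total UMIs those of miR-192-5p were 1.55 in KO and 0.837 in WT, so the size and direction of the pool difference depend on the scaling. In reads, miR-192-5p had 34543 and 38328 in KO, against 61570 and 29063 in WT. Its reads per UMI, 6.42 and 2.17 in KO and 6.07 and 1.70 in WT, followed those of the libraries.

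Ratios between miRNAs of one library need no scaling, and 13 such ratios were computed. The cluster partners miR-192-5p and miR-194-5p stood at 2.84 and 5.10 in KO, against 4.04 and 5.26 in WT. The KO over WT fold of this ratio was 0.702 in pool 1 (95% log-normal interval 0.656 to 0.752, counting error only) and 0.970 in pool 2 (0.921 to 1.02). Over libraries the ratio overlapped between the genotypes (exact two-sided permutation test, p = 0.67). Its log2 difference, KO over WT, was -0.28, and it was 0.15 without KO pool 1. miR-192-5p over miR-802-5p was 72.7 and 190 in KO, against 78.7 and 228 in WT, and was higher in pool 2 in both genotypes.

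miR-215-5p, the seed relative, was 756 and 1388 UMIs in KO, against 777 and 596 in WT. It had 294 and 559 CPM in KO, against 290 and 328 CPM in WT, with a log2 fold change of 0.47 (SE 0.59, adjusted p = 0.99995, edgeR). Its pool ratios were 1.01 and 1.71 under TMM and 0.898 and 2.03 on total UMIs, so in pool 1 the direction turned with the scaling. Its ratio to miR-192-5p was 0.140 and 0.0785 in KO, against 0.0765 and 0.0349 in WT. Both KO ratios were above both WT ratios, but KO pool 2 and WT pool 1 were nearly equal (exact two-sided permutation test, p = 0.33; mean ± SD over 2 libraries each, 0.109 ± 0.0438 in KO and 0.0557 ± 0.0294 in WT). Within pool numbers the ratio was 1.84 times as high in KO in pool 1 (1.65 to 2.04) and 2.25 times in pool 2 (2.04 to 2.48), and on reads 1.87 and 2.31 times. Of the UMIs that carry the shared seed, miR-215-5p made up 12.3% and 7.28% in KO, against 7.11% and 3.37% in WT. On the log2 scale the KO over WT difference of this ratio was 1.02 over all libraries, 0.60 without KO pool 1, 0.46 without WT pool 2 and 1.59 without WT pool 1. The ratio was set up after the values were seen. Among 351 miRNAs averaging at least 100 UMIs, the ratio to miR-192-5p was in both KO libraries above both WT libraries for 26.8%, so that pattern is common. A ratio higher in KO in both pools by at least as much as that of miR-215-5p was found for 5 of them (1.42%, itself included), the others being miR-203-3p, miR-205-5p, miR-206-3p and miR-6956-5p. As miR-215-5p was picked after its values were seen and sets the cutoff itself, this share is a description only. miR-215-5p over miR-194-5p was 0.399 and 0.400 in KO, against 0.309 and 0.184 in WT. miR-215-3p, the other arm of that hairpin, had 98 and 338 UMIs in KO, against 105 and 162 in WT, and pool ratios of 0.972 and 1.53.

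**Figure D4:**
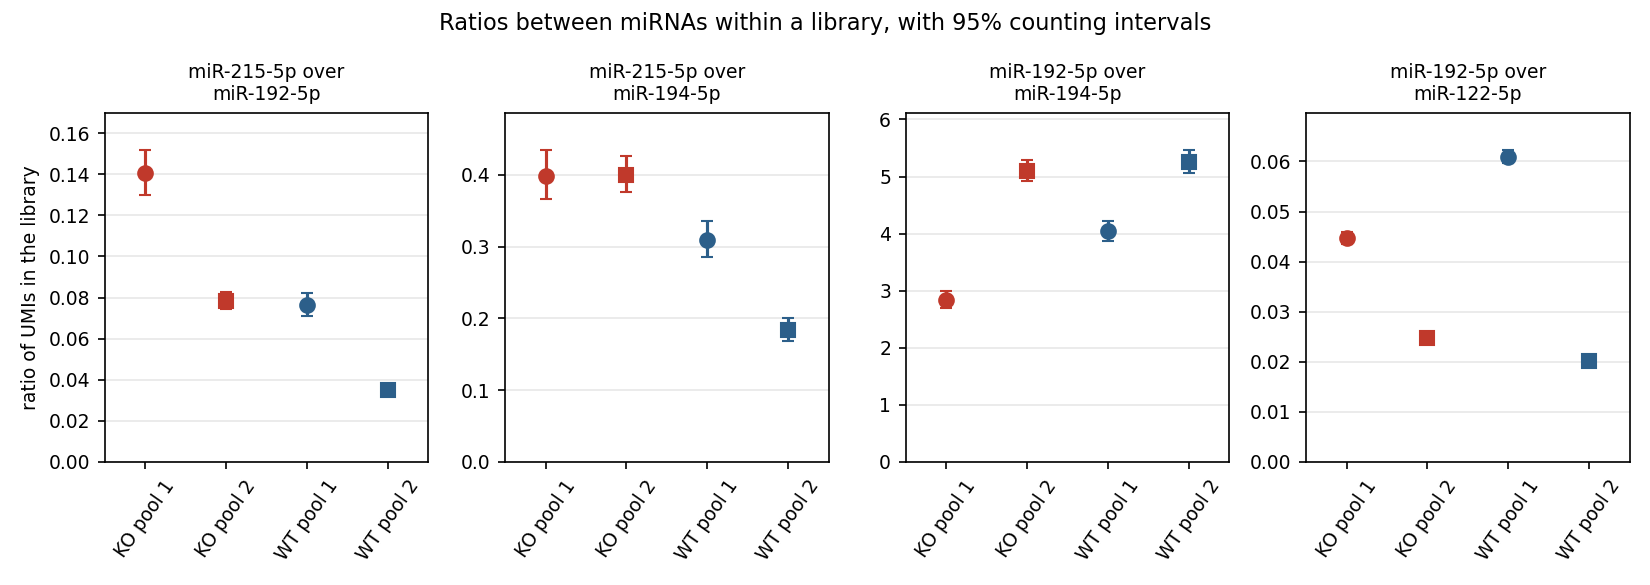
Ratios of UMIs between 2 miRNAs in each library, KO in red and WT in blue, pool 1 as circles and pool 2 as squares, with 95% counting intervals as bars. The ratio of miR-215-5p to miR-192-5p is highest in KO pool 1 at 0.140 and lowest in WT pool 2 at 0.0349, while that of miR-192-5p to miR-122-5p separates the pool numbers.

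Of the tissues known to make the members, hepatocytes were represented by miR-122-5p, which had 120598 and 714448 UMIs in KO, against 166478 and 844242 in WT. The 4 hepatocyte markers together took 7.44% and 20.4% of miRNA UMIs in KO, against 10.8% and 27.2% in WT, with 0 called and none at 0. Lower in KO in both pools were 3 of 4 under TMM (27.1% of all miRNAs) and 2 of 4 on total UMIs (20.8%). miR-148a-3p was higher in KO in both pools, with pool ratios of 1.53 and 1.10 under TMM and 1.36 and 1.31 on total UMIs. miR-192-5p over miR-122-5p was 0.0446 and 0.0247 in KO, against 0.0610 and 0.0202 in WT. Its KO over WT fold was 0.732 in pool 1 (0.708 to 0.757) and 1.22 in pool 2 (1.20 to 1.25), in opposite directions. For miR-194-5p over miR-122-5p the folds were 1.04 and 1.26, and for miR-802-5p over miR-122-5p 0.792 and 1.47. The pool 1 intervals of these last ratios, 0.982 to 1.11 for miR-194-5p and 0.595 to 1.05 for miR-802-5p, span 1. All 3 ratios to miR-122-5p overlapped between the genotypes over libraries, with log2 differences of -0.08, 0.20 and 0.11 for miR-192-5p, miR-194-5p and miR-802-5p (exact two-sided permutation tests, p = 1, 0.67 and 1).

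The 6 markers of gut and other epithelium, the miR-200 family and miR-31-5p, took 0.259% and 0.116% in KO, against 0.187% and 0.0914% in WT, with 5 of 6 log2 fold changes positive, a median of 0.38, 4 of 6 higher in KO in both pools under TMM (24.5% of all miRNAs), 5 of 6 on total UMIs and 0 called. The 3 pancreas markers found took 0.0435% and 0.0557% in KO, against 0.0546% and 0.0537% in WT. All 3 had a negative log2 fold change (52.6% of all miRNAs tested). Lower in KO in both pools were 2 of 3 under TMM (27.1% of all miRNAs) and 1 of 3 on total UMIs (20.8%). The 4 cluster and seed relatives of the members (the 3p arms of miR-194 and both arms of miR-215) had a median log2 fold change of 0.23 and 0 called. Markers of other sources also differed between libraries. The 6 red blood cell markers took 37.4% and 46.3% in KO, against 46.0% and 43.2% in WT. Most of this sum was miR-16-5p, with 29.4% and 28.5% in KO, against 35.4% and 24.8% in WT. miR-451a took 0.140% and 0.238% in KO, against 0.186% and 0.230% in WT. Lower in KO in both pools were 5 of 6 under TMM (27.1% of all miRNAs) and 2 of 6 on total UMIs (20.8%). The 4 muscle markers took 3.73% and 0.690% in KO, against 0.404% and 0.428% in WT. Higher in KO in both pools were 1 of 4 under TMM, miR-206-3p (24.5% of all miRNAs), and 3 of 4 on total UMIs. On that last scaling 65.4% of all miRNAs were lower in KO in pool 1 and 31.0% in pool 2. No marker in these lists was at 0 in any library and 0 were called. The part of these sources, of the pool numbers and of library depth in the members' differences was not tested, and fewer vesicles from a tissue cannot be told apart from fewer copies per vesicle.

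Likeness of profile was measured as the root mean square difference of centred log2 CPM over the 4 libraries, where 0 means the same profile, among miRNAs averaging at least 100 UMIs. Nearest to miR-192-5p were miR-93-5p (0.186), miR-25-5p (0.200) and miR-25-3p (0.210), and miR-93 and miR-25 come from the same hairpin cluster. miR-93-5p had 17769 and 54850 UMIs in KO, against 24130 and 45253 in WT, so it was more abundant than miR-192-5p. Its UMI counts, which are not scaled for depth, were likewise higher in pool 2. Nearest to miR-194-5p were miR-7662-3p (0.0403), miR-3473d (0.0614) and miR-5100 (0.0741). For miR-192-3p they were miR-7688-5p (0.247), miR-322-3p (0.254) and miR-296-5p (0.271), for miR-802-5p miR-2137 (0.0547), miR-152-5p (0.150) and miR-298-5p (0.153), and for miR-802-3p miR-125b-1-3p (0.0756), miR-351-5p (0.0777) and miR-6238 (0.0942). Among the members themselves the arms of miR-802 were the closest pair (0.160), while the arms of miR-192 were at 0.429 and miR-192-5p and miR-194-5p at 0.356. miR-192-5p was farther from miR-215-5p (0.714) and from miR-122-5p (0.640) than from its cluster partner. On total UMIs, 2 or 3 of the 3 nearest were the same for each member, and miR-298-5p came first for miR-802-3p. Among miRNAs averaging at least 1000 UMIs, 2 of 3 were the same for miR-192-5p and 0 of 3 for the other members, whose nearest miRNAs all averaged fewer. With 4 libraries that fall into 2 pool numbers these distances describe the libraries only.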

How the data were processed

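EDTA plasma was treated with ExoQuick to precipitate exosomes, whose RNA was isolated on columns and prepared with the QIAseq miRNA kit, per the labels' protocols. The values are the UMI counts per miRNA that the authors deposited, whole numbers with no normalization, and read counts, also deposited, were tried in their place. Another deposited value is on the log2 scale and equals the log2 UMI count shifted by 1 constant in each library. The submitters' processing notes name FastQC 0.11.9 and GRCm38/mm10, while neither aligner nor counter is given in sources used here. Column names of the pool 2 sample tables depart from their labels, so samples were assigned by label and checked against the table of all libraries.

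The lists held 1930 features in pool 1 and 1888 in pool 2, and piRNAs and miRNAs of 1 pool number were left out. Counts above 0 began at 10 in KO pool 1 and WT pool 1, at 2 in KO pool 2 and at 1 in WT pool 2. All 1797 miRNAs that passed edgeR's filter were fitted together (edgeR 4.0.16, R 4.3.3, TMM, Benjamini-Hochberg adjusted two-sided quasi-likelihood F-test, 2 residual degrees of freedom). The fit was tried on simulated counts with the same spread for every miRNA and no difference between pool numbers. Those counts do not show how the fit behaves on libraries that differ by pool number. TMM factors were 1.50 and 0.684 in KO pools 1 and 2, and 1.70 and 0.574 in WT pools 1 and 2. Alternatives used limma 3.58.1 and DESeq2 1.42.0, and tables were made with SciPy 1.17.1 and pandas 2.3.3 in Python 3.11.15. The labels name separate pools but do not say that equal pool numbers share handling, so the main fit has no block. P-values of the fits set the genotype difference against the spread between libraries, which in the main fit includes any difference between pool numbers. As each library is of pooled plasma, they do not cover variation between single mice. Named are the members, their hairpins' arms and miR-215, marker lists, and for each member the 3 miRNAs of most similar profile (prior count 2); miRNAs singled out by their ratio to miR-192-5p were chosen after their values were seen. Members and lists were chosen with earlier results of these data known. Sequences are RefSeq's (GRCm38.p6), found for all 5 members, at the positions deposited.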

Additional observations from a re-analysis of the deposited data

How the results depend on the processing

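Of 1797 miRNAs, 0 were called, and 0 members were called under every alternative: 17 other settings and each library left out. The number of miRNAs called ranged between 0 and 3 with 1 library left out. It was 5 with the pool number block on total UMIs, 18 with the block and TMM factors from miRNAs averaging at least 100 UMIs, and 10 with the block and only those miRNAs tested, all chosen after the data were seen. The cause was not tested. In the fit of only those miRNAs, miR-192-3p, miR-802-5p and miR-802-3p averaged fewer UMIs, so they were not tested and could not be called. Adjusted p of members ranged from 0.262 to 0.99996 over 97 fits. With the block alone the members' log2 fold changes lay between -0.71 and -0.35, and 0 of 1797 were called. Same-numbered libraries deviated together (correlation 0.527). With 2 libraries per genotype both pool numbers give this same value by construction, so it does not establish a pairing. With all libraries kept, the pool 2 ratio of miR-802-5p was 1.08 on total UMIs and 0.909 under TMM. Some fold changes and shares reversed with 1 library left out, where pool numbers are no longer equal between the genotypes. The log2 fold change was 0.13 for miR-192-5p and 0.06 for miR-194-5p without KO pool 1, and 0.28 and 0.19 without WT pool 2, and at its lowest -1.65 and -0.88. Share differences were 0.000793 (miR-194-5p), 0.00108 (miR-802-5p) and 0.000388 percentage points (miR-802-3p) without WT pool 1, and 7.51e-06 for miR-802-3p without KO pool 2, and at their lowest -0.0559, -0.00473 and -0.00129. The members' median log2 fold change ranged from -0.88 to -0.15 with 1 library left out and from -0.56 to -0.40 otherwise, and the summed share difference from -0.308 to -0.135 and from -0.345 to -0.217 percentage points. Counts of 25 to 39 UMIs limit miR-802-3p.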
